A study of Mus musculus with 4 samples.

Results

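The CD8 T cells described here came from transplanted mouse hearts. No transcript of granzyme B (Gzmb), the protease with which activated killer cells destroy their targets, was captured in them. They were taken from the droplet counts by a gate on unique molecular identifiers (UMIs, each standing for 1 captured transcript). A cell had to contain at least 2 UMIs of the CD3 genes Cd3d, Cd3e and Cd3g together, at least 1 UMI of the co-receptor genes Cd8a and Cd8b1, no UMI of Gzmb, Cd4, Foxp3 or the endothelial gene Cdh5, and fewer than 10 UMIs of the macrophage gene Lyz2. Of 44626 cells with more than 200 genes and less than 20% mitochondrial UMIs, 142 met the gate, a share of 0.318% (exact Clopper-Pearson 95% interval 0.268 to 0.375). The genes of the gate and every other gene of these cells were read from the same counts, so the cells were chosen by measured values (the UMIs of the gate's genes), which are given as a description only.

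In the study, hearts were placed in the abdomen of C57BL/6J recipients and were collected on day 5. The 2 allogeneic grafts were Balb/C hearts, mismatched with the recipient, and the 2 syngeneic grafts were C57BL/6J hearts, matched with it. Donors and recipients were young adult male mice. RNA of single cells was counted by a droplet method that reads the 3′ end of transcripts. The counts of the 4 grafts were deposited merged, with a barcode suffix from 1 to 4 and no statement of which suffix belongs to which graft. The suffixes are therefore called libraries 1 to 4, no allogeneic graft was compared with a syngeneic one, and the whole is treated as 1 sample with no test between groups. All intervals cover counting error only. Those of levels pool the UMIs of a library's cells and leave out the spread between cells. Their overlap, or its lack, is a description and no test between libraries.

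CD8 T cells recognise peptides on class I molecules of the major histocompatibility complex. Before activation they circulate through blood and lymph nodes under transcription factors such as TCF1 (Tcf7) and LEF1 (Lef1), guided by homing receptors such as the chemokine receptor CCR7 (Ccr7). Once activated they can make granzymes, perforin, interferon-γ and chemokines, and in rejected grafts such cells are well known as killers of donor tissue. Memory cells can carry features of both states.

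The cells were unevenly spread over the libraries. Library 1 held 17 of them, library 2 held 38, library 3 held 20 and library 4 held 67, shares of 0.165%, 0.289%, 0.203% and 0.593% of each library's cells. Their median depth was 6188 UMIs in library 1, 4872 in library 2, 6358.5 in library 3 and 7434 in library 4, and over all cells it ranged from 888 to 37145. The libraries themselves summed to 96020294, 115162601, 138892048 and 166079145 UMIs. Library 4 was thus the deepest and held the most of these cells, and their median depth was lowest in library 2.

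Library 4 also held nearly all CD8 T cells with a Gzmb UMI. The same gate with at least 1 Gzmb UMI took 2 cells in library 1, none in library 2, 9 in library 3 and 488 in library 4. The count of 0 among the 13154 cells of library 2 allowed a share of up to 0.0228% of cells with such a UMI, taking 3 counts as the limit that a count of 0 allows. In library 4 the granzyme B-positive cells were deep, with a median of 17754 UMIs.

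The share of cells without Gzmb fell with depth. Among the CD8 T cells of library 4 with fewer than 5000 UMIs, 21 of 71 had no Gzmb UMI, 29.6% (19.3 to 41.6). The share was 19.2% (12.0 to 28.3) from 5000 to 10000 UMIs, 10.6% (6.31 to 16.5) from 10000 to 20000 and 4.44% (2.15 to 8.02) above that. In endothelial cells of library 4 Gzmb was at 58.9 CPM (UMIs of the gene for each 1e6 UMIs of the group). That level would give 0.438 UMI in a cell of 7434 UMIs, so that 1 UMI is no sign of expression by itself. What part free RNA had in this count was not tested. When the Gzmb-positive cells of library 4 were thinned to 7434 UMIs, the median depth of the cells without Gzmb there, 15 of the 398 that were deep enough had no Gzmb UMI left, 3.77% (2.12 to 6.14), and at 5000 UMIs 34 of 438 had none, 7.76% (5.44 to 10.7). For a single cell, lack of Gzmb and lack of detection cannot be told apart.

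**Figure D1:**
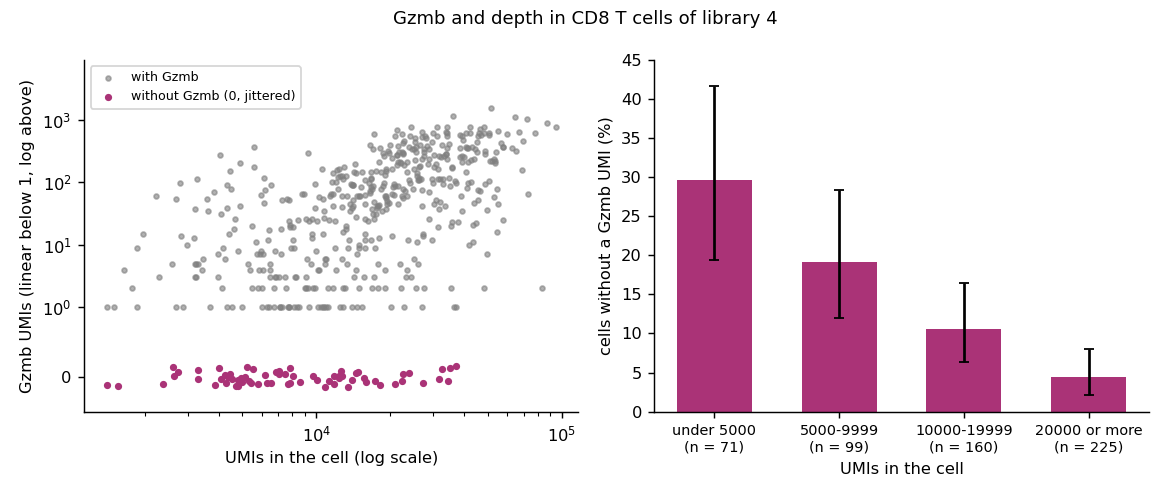
Gzmb UMIs of each CD8 T cell of library 4 against its total UMIs, both on log-type axes (left), and the percentage of CD8 T cells without a Gzmb UMI in each range of depth, with exact 95% intervals (right). The share without Gzmb went from 29.6% in the shallowest range to 4.44% in the deepest.

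Near the thresholds of the gate, 11 of the 142 cells had exactly 2 CD3 UMIs, and 41 cells with 1 CD3 UMI met every other criterion. There were 32 cells with exactly 1 CD8 UMI inside the gate, and 185 with none just outside it. With 1 Gzmb UMI, 42 cells stood just outside, 39 of them in library 4, and 357 cells had at least 10. Lyz2 was at 0 in 62 of the cells, while 11 cells, all of library 4, had 5 to 9 Lyz2 UMIs, and no cell that met the other criteria had 10 to 14.

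The label was checked on genes that the gate did not use. The T cell receptor constant genes Trbc2 and Trac had a UMI in 133 and 106 of the 142 cells, Tcf7 in 99 and Lef1 in 85. A single cell had a UMI of Trdc, the constant gene of γδ T cells, and a single cell held Ncr1, a natural killer (NK) cell receptor gene. The 7-gene NK cell list as a whole had a UMI in 85 of the 142 cells, 62 of them among the 67 of library 4, mostly of Fcer1g and Tyrobp. Endothelial cells of library 4 held more of this list, 0.112% of UMIs against 0.0385%. The B cell genes Ms4a1 and Ly6d were at 0 in all 142 cells.

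RNA of other cell types was nevertheless present. No cell of the 142 shared its barcode sequence with a cell of another library, although 497 of the 44626 cells did. By a rule chosen after the data were seen, a cell was called mixed when more than 100 UMIs and more than 0.5% of its UMIs came from the markers of 1 of 7 other cell types (endothelium, macrophages, neutrophils, red blood cells, cardiomyocytes, fibroblasts and B cells). This took 8 cells, 3 in library 2, 1 in library 3 and 4 in library 4. A fibroblast list (5 genes, led by Dcn, the gene of the matrix protein decorin) gave 341 UMIs in a cell of library 2, 544 in one of library 3 and 508, 898 and 256 in 3 of library 4. A neutrophil list (5 genes, led by S100a9) gave 567 and 421 UMIs in 2 cells of library 2 and 194 in 1 of library 4. The 3 fibroblast-rich cells of library 4 were among the deepest, with 27241, 31493 and 35181 UMIs, and held only 4 or 5 UMIs of the 16-gene T cell receptor list. Comparisons are given with and without the 8 cells. The dendritic cell list was not among the 7, and by the same limits it took 1 more cell of library 4, with 177 UMIs of that list and 55 of the NK cell list among 22390. This dendritic-rich cell, which also held the Ncr1 UMIs, is not counted as mixed, and values that rest on it are given without it.

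In the whole set the fibroblast list made up 0.0444%, 0.164%, 0.485% and 0.237% of UMIs in libraries 1 to 4. With the mixed cells left out the last 3 of these were 0.00439%, 0.0862% and 0.00907%. The neutrophil list was at 0.658% in library 2, where endothelial cells held 0.737%, and at 0.0331% or less elsewhere. Without the mixed cells it was at 0.243% in library 2. An endothelial list of 8 genes, led by Fabp4 and with Cdh5 at 0 by the gate, was highest in library 2 as well, at 0.242%. Macrophage genes (8 of 8 detected, led by Lyz2) made up at most 0.0552%, in library 4. Fewer than 0.1% of UMIs in each library came from the lists of red blood cells (4 of 5 genes detected, Alas2 at 0), cardiomyocytes (7 of 7), dendritic cells (5 of 7, Xcr1 and Cd209a at 0), NK cells (7 of 7), γδ T cells (5 of 6), B cells (2 of 4) and regulatory T cells (2 of 4, Cd4 and Foxp3 at 0 by the gate). What part this RNA had in the values below was not tested beyond leaving out the mixed cells.

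**Figure D2:**
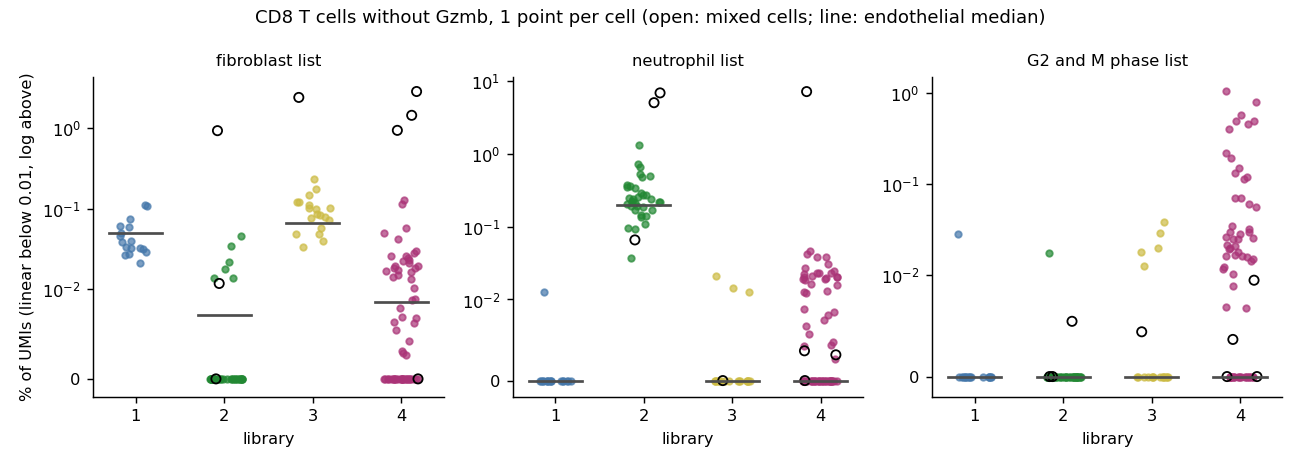
Percentage of each cell's UMIs from the fibroblast, neutrophil and G2/M gene lists in libraries 1 to 4, on an axis that is logarithmic above its linear start; open symbols are mixed cells and lines the endothelial median. Mixed cells reach 567 neutrophil and 898 fibroblast UMIs, and cells with many G2/M UMIs appear in library 4.

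Endothelial cells of the same libraries (at least 2 Cdh5 UMIs and no CD3 UMI) served as the background for free RNA, since they should lack T cell genes. They numbered 4377, 5224, 4443 and 554, with median depths of 5609, 6530.5, 7869 and 10774 UMIs. Levels below are in CPM, the UMIs of a gene for each 1e6 non-mitochondrial UMIs of the cells of a library. They were not scaled by transcript length and were not compared between genes.

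The T cell receptor gene Trbc2 was at 1285 CPM in library 1, 878 in library 2, 1618 in library 3 and 1610 in library 4, and endothelial cells held at most 14.3 CPM. It was lowest in library 2, where the median depth was lowest and the cells carried the most neutrophil and endothelial RNA. Lck, the kinase that starts signalling from the receptor, was at 501, 357, 319 and 269 CPM and was not lowest in library 2. Among the genes of the gate, whose presence the gate fixed, Cd3d was at 1124, 611, 851 and 1025 CPM and Cd8a at 359, 141, 334 and 469 CPM.

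Genes of naive and recirculating T cells were detected in each library, at unlike levels. The 16 genes of this list made up 0.589%, 0.670%, 0.623% and 0.381% of UMIs in libraries 1 to 4, against 0.474%, 0.311%, 0.368% and 0.352% in endothelial cells, which use some of them too. The sum was thus close to the background in library 4, and single genes differed in this. Tcf7 (ENSMUSG00000000782, chr11:52252371-52283014) was at 283 CPM in library 1, 225 in library 2, 274 in library 3 and 236 in library 4. These values had overlapping intervals, and endothelial cells held at most 1.09 CPM. Lef1 (ENSMUSG00000027985, chr3:131110471-131224356) was at 132, 334, 342 and 110 CPM. Libraries 2 and 3 were high and libraries 1 and 4 low, without overlap of the intervals of library 4 (87.5 to 137) and library 2 (260 to 421). Coordinates are of the GRCm38 build.

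Ccr7, which guides cells into lymph nodes, was at 255, 460, 380 and 364 CPM in libraries 1 to 4. The dendritic-rich cell gave 36.4% of the UMIs in library 4, and without it the level there was 239 CPM (204 to 278), below library 1 (168 to 371) but with overlapping intervals. Endothelial cells of library 4 held 12.1 CPM. Il7r, the receptor for the survival cytokine interleukin-7, was at 350, 521, 334 and 252 CPM, highest in library 2.

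Other genes of the same group set library 4 apart. Satb1, a chromatin organiser of T cells, was at 557, 907, 638 and 306 CPM and was lowest in library 4, as was the egress receptor gene S1pr1 at 217, 296, 190.0 and 74.5 CPM. S1pr1 was at 306 CPM or more in endothelial cells, which use it themselves. Dapl1 (ENSMUSG00000026989, chr2:59484653-59505020) was instead highest in library 4, at 235 CPM, against 94.5, 47.0 and 98.8 CPM in libraries 1 to 3. It had a UMI in 25 of the 67 cells of library 4, and all 25 also held Tcf7, as did 51 of the 67 cells in all. Igfbp4 was at 595, 61.1, 600.3 and 26.2 CPM, and in library 3 a single mixed cell gave 73.4% of its UMIs. Without the mixed cells Igfbp4 was at 193 CPM in library 3 and 14.3 in library 4.

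**Figure D3:**
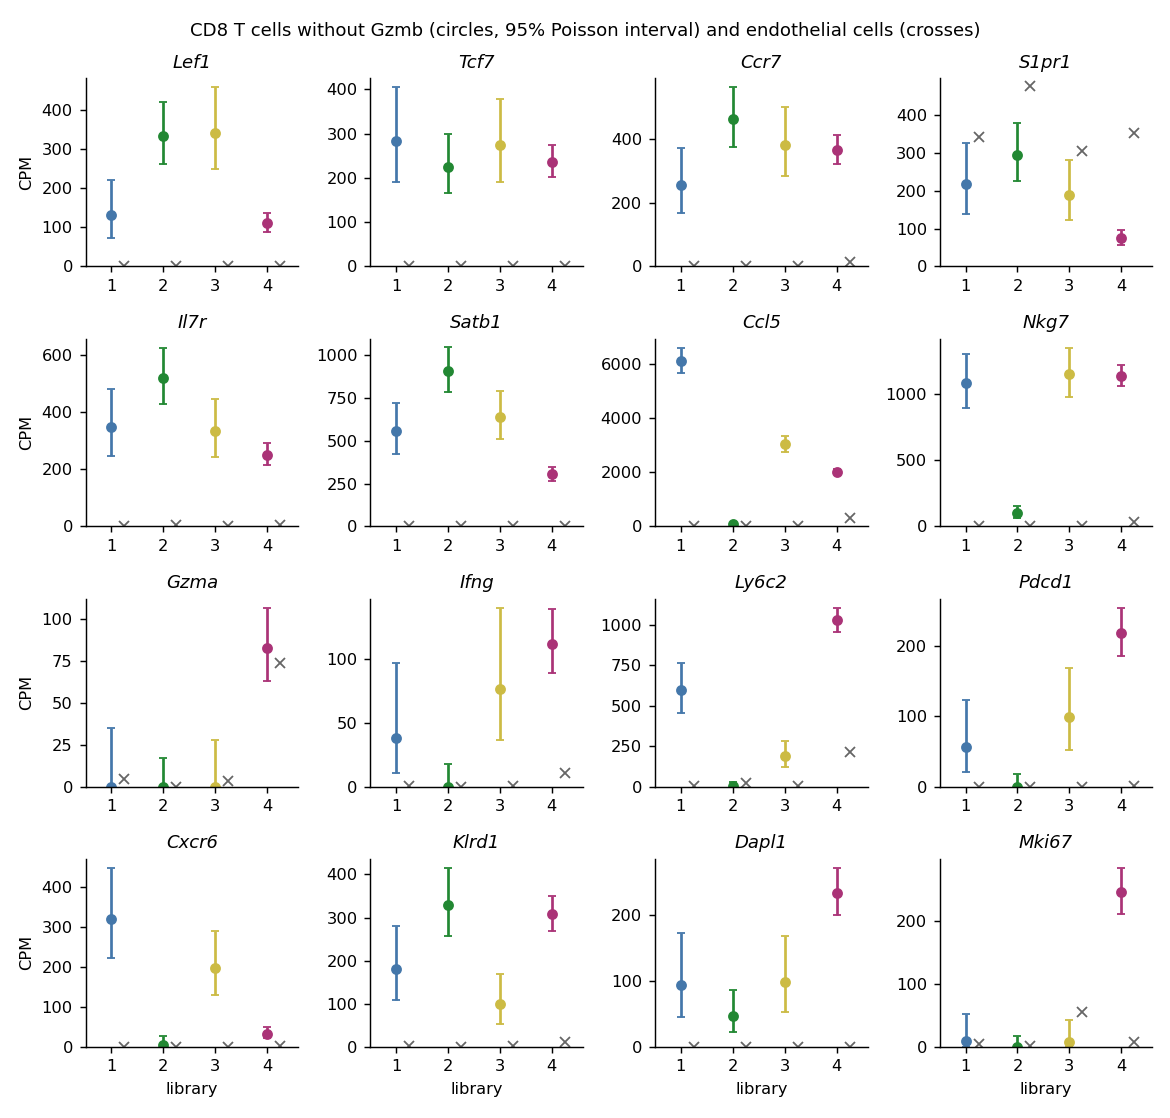
Level in CPM of 16 genes in libraries 1 to 4; circles are the CD8 T cells without Gzmb with exact Poisson 95% intervals, and crosses are endothelial cells of the same library. Tcf7 lies between 225 and 283 CPM in all libraries, while Ccl5, Ly6c2, Pdcd1 and Mki67 differ between them.

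At least 1 UMI of Lef1, Tcf7 or Ccr7 was found in 125 of the 142 cells, 88.0% (81.5 to 92.9). By library this was 15 of 17, 37 of 38, 14 of 20 and 59 of 67 cells. With each cell thinned to 1000 UMIs, which left out 1 shallower cell, the share was 53.2% (44.6 to 61.6). Endothelial cells had such a UMI in 1.19%, 2.41%, 1.80% and 7.76% of cells, and in 0.254%, 0.534%, 0.249% and 1.64% when thinned. The T cells were above this background in each library. In library 4 such a UMI was also found in 43 of 50 CD4 T cells without Gzmb (gated below) and in 312 of 488 CD8 T cells with Gzmb. After thinning these counts were 23 of 50 and 73 of 488, beside 32 of 67 of the cells described here. The share was thus not particular to these cells and was close to that of the CD4 T cells.

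Genes of the killer programme other than Gzmb divided the libraries differently. The chemokine gene Ccl5 (ENSMUSG00000035042, chr11:83525778-83530518) was at 6112 CPM in library 1, 79.9 in library 2, 3032 in library 3 and 2022 in library 4. Nkg7, the gene of a cytotoxic granule protein, was at 1077, 98.7, 1147 and 1134 CPM. Library 2 was low for both, and none of its intervals touched those of the other libraries. Endothelial cells held 324 CPM of Ccl5 and 30.6 CPM of Nkg7 in library 4, and less in the other libraries. Ctsw, the gene of a cathepsin of cytotoxic cells, was lowest in library 2 too, with 406, 75.2, 319 and 306 CPM.

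The pore-forming and killing genes themselves were low. Prf1 (perforin) was at 37.8, 9.40, 45.6 and 44.1 CPM, with overlapping intervals in libraries 1, 3 and 4. Gzma (granzyme A) had no UMI in libraries 1 to 3, where 3 counts would be 28.3, 14.1 and 22.8 CPM. In library 4 it was at 82.8 CPM with a UMI in 20 of 67 cells, beside 73.8 CPM in endothelial cells there. The dendritic-rich cell gave 60.0% of the Gzma UMIs of the T cells, and the level without it was 34.2 CPM, below the endothelial level. What part free RNA had in this level was not tested. Ifng, the gene of interferon-γ, was at 37.8, 0, 76.0 and 112 CPM, against 10.9 CPM in endothelial cells of library 4, and 1 cell gave 60.0% of its UMIs in library 3 and 40.7% in library 4. The lymphotactin gene Xcl1, chosen after its values were seen, was at 132, 0, 68.4 and 593 CPM, and Gzmc and Gzmf had no UMI in any of the 142 cells.

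A UMI of Gzma, Gzmk, Prf1, Ifng, Nkg7 or Ccl5 was found in 14 of 17 cells in library 1, 13 of 38 in library 2, 18 of 20 in library 3 and 65 of 67 in library 4. After thinning, the counts were 12 of 17, 4 of 38, 13 of 19 and 56 of 67. The endothelial shares were 5.69%, 1.76%, 3.98% and 86.6% at full depth and 1.27%, 0.336%, 0.816% and 23.6% after thinning. In library 4 the full-depth share is therefore no sign of expression by itself, whereas the thinned share of 83.6% was above the thinned background.

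Lef1, Tcf7 and Ccr7 are called lymph node genes here, and Gzma, Gzmk, Prf1, Ifng, Nkg7 and Ccl5 killer genes. These are labels only, which show neither the place of a cell nor killing by it. Cells with a UMI of both groups of genes were counted after thinning, since the endothelial share was lower there. They numbered 6 of 17, 3 of 38, 5 of 19 and 27 of 67 in libraries 1 to 4, against 0.0462%, 0, 0.0227% and 0.727% of endothelial cells, where the 0 allows up to 0.0593%. At full depth they were 12 of 17, 13 of 38, 13 of 20 and 57 of 67. The endothelial share was at most 7.40%, in library 4, where most endothelial cells held a UMI of the killer genes. The source of those UMIs was not tested. In library 4 at full depth, 37 of 50 CD4 T cells without Gzmb and 312 of 488 CD8 T cells with Gzmb also held both. After thinning these were 9 of 50 and 67 of 488. Of the 67 thinned cells described here, 32 held a lymph node gene and 56 a killer gene. Whether the 2 met in a cell more often than these separate counts imply was not tested. Library 2 was mostly made of cells with the lymph node genes alone, 24 of 38, at full depth, whereas libraries 1, 3 and 4 held 3, 1 and 2 of these. Cells with the killer genes alone numbered 2, 0, 5 and 8 at full depth, and 4 of the 8 in library 4 were mixed cells. After thinning, cells with the killer genes alone numbered 6 of 17, 1 of 38, 8 of 19 and 29 of 67.

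Within single cells the 2 groups of genes were weighed as UMIs per 10000. The median of the 3 lymph node genes was 3.92, 12.3, 5.44 and 5.18 in libraries 1 to 4, and that of the 6 killer genes was 70.1, 0, 22.1 and 23.1. Library 2 was high for the former and at 0 for the latter. Across cells of a library, which share a library and differ in depth, Spearman's rho between the groups was -0.57 in library 1 (17 cells), -0.09 in library 2 (38 cells), -0.64 in library 3 (20 cells) and -0.01 in library 4 (67 cells). These values were -0.57, -0.15, -0.65 and -0.14 when the mixed cells were left out.

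**Figure D4:**
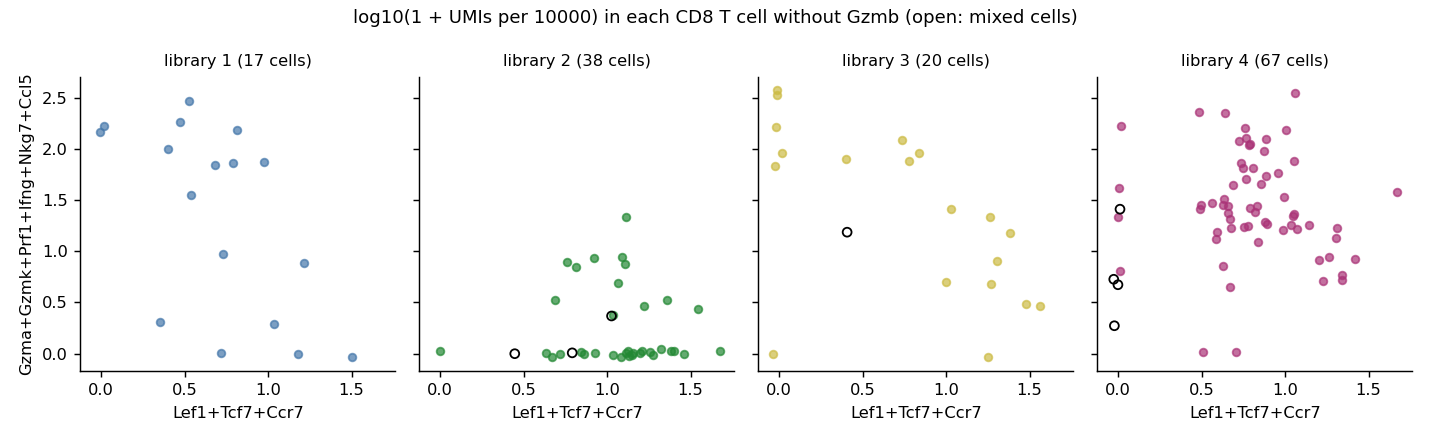
Each point is 1 cell of libraries 1 to 4, with the summed Lef1, Tcf7 and Ccr7 UMIs per 10000 on the horizontal axis and the summed Gzma, Gzmk, Prf1, Ifng, Nkg7 and Ccl5 UMIs per 10000 on the vertical axis, both as log10 of 1 plus the value; open circles are mixed cells, and points are shifted slightly at random to keep them apart. Library 2 lies along the horizontal axis, with 24 of 38 cells holding the lymph node genes alone, and library 4 has 57 of 67 cells with both at full depth and 27 of 67 after thinning.

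Receptors of the NK type are carried by memory and effector CD8 T cells. Klrd1, which encodes CD94, was at 179, 329, 98.8 and 308 CPM in libraries 1 to 4, and it was high in library 2, where the killer genes were low. Klrk1, which encodes the activating receptor NKG2D, was at 75.6, 0, 83.6 and 179 CPM. Cd160 was at 37.8, 4.70, 45.6 and 106 CPM, and Klrg1, known from short-lived effector cells, had 1 UMI in library 1 and none elsewhere. Klrk1 and Cd160 were highest in library 4, where endothelial cells held 18.1 and 1.58 CPM.

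Among transcription factors, Runx3, which maintains the CD8 lineage, was at 132, 221, 122 and 225 CPM in libraries 1 to 4. Eomes and Tbx21, which direct effector and memory programmes, were low. Eomes was at 37.8, 9.40, 38.0 and 16.6 CPM, with 18.3 CPM in library 3 without the mixed cells, and Tbx21 was at 56.7, 0, 22.8 and 29.0 CPM. Ikzf2 (Helios) was at 9.45, 9.40, 68.4 and 241 CPM. Library 4 was highest for Ikzf2, with a UMI in 26 of 67 cells, and the gate admits no cell with Foxp3, the regulatory T cell factor with which Helios is often studied.

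The activation genes Ly6c2 and Cd69 were lowest in library 2. Ly6c2 (ENSMUSG00000022584, chr15:75108158-75111970), a surface protein gene of memory and activated CD8 T cells, was at 595, 4.70, 190.0 and 1028 CPM. It had a UMI in 8 of 17, 1 of 38, 3 of 20 and 52 of 67 cells, with 64.0% of its UMIs in library 3 from 1 cell, and endothelial cells of library 4 held 215 CPM. Cd69, an early activation and retention gene, was at 444, 23.5, 144 and 199 CPM, highest in library 1. Il2rb, a chain of the interleukin-2 and interleukin-15 receptors, was at 340, 122, 228 and 262 CPM, and Cd44 was at 85.0, 103, 98.8 and 128 CPM with overlapping intervals. Without the mixed cells Cd44 was at 50.2 CPM in library 2. Endothelial cells held 110.0 CPM of Cd44 in library 2 and 103 CPM in library 4, near the levels of the T cells.

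The inhibitory receptor genes Pdcd1 and Lag3 were highest in library 4. Pdcd1, which encodes PD-1, was at 56.7, 0, 98.8 and 218 CPM and had a UMI in 2, 0, 6 and 35 cells. Lag3 was at 9.45, 0, 30.4 and 146 CPM. For both genes the interval of library 4 lay above those of the other libraries, and endothelial cells of library 4 held 1.58 and 9.83 CPM. Of the 35 Pdcd1-positive cells of library 4, 32 also held Tcf7, as did 51 of all 67 cells there. The part of depth in this overlap was not tested. Havcr2, which encodes TIM-3, had UMIs in 3 cells of library 4 and in none of libraries 1 to 3.

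Receptors for tissue traffic followed another order. Cxcr6, a receptor of T cells that reside in tissues, was at 321 CPM in library 1, 4.70 in library 2, 198 in library 3 and 33.1 in library 4. Ccr2 was at 198, 9.40, 76.0 and 27.6 CPM. A single cell gave 41.2% of the Cxcr6 UMIs of library 1. Libraries 1 and 3 were high for both, with intervals above that of library 4 for Cxcr6. Cxcr3, a receptor for interferon-induced chemokines, was at 123, 9.40, 60.8 and 108 CPM, low in library 2. Itgae (CD103), a tissue residence gene, reached 14.1 CPM at most.

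Cells in division were found in library 4. Mki67, a proliferation gene, was at 9.45, 0, 7.60 and 246 CPM, with a UMI in 1, 0, 1 and 20 cells. At least 5 UMIs of a 15-gene G2/M list were present in 13 of the 67 cells of library 4 and in none of the 17, 38 and 20 cells of the others. These 13 cells had a median of 18267 UMIs, against 4628.5 for the 22 cells of library 4 without such a UMI, so depth moved with the count. Tcf7 had a UMI in 19 of the 20 Mki67-positive cells of library 4 and in 51 of all 67 cells there, and the part of depth was not tested. The list made up 0.137% of UMIs in library 4 and at most 0.00608% in the others, while endothelial cells of library 4 held 0.00603%.

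Metabolic and interferon genes were likewise highest in library 4, in the T cells and in their surroundings. Glycolysis genes (15 in the list) made up 0.254%, 0.307%, 0.287% and 0.684% of UMIs in libraries 1 to 4, and 0.234%, 0.462%, 0.316% and 0.665% in endothelial cells. Interferon response genes (17 in the list) made up 0.147%, 0.0709%, 0.103% and 0.452%, and 0.391%, 0.0587%, 0.227% and 0.965% in endothelial cells. Ifi27l2a, an interferon-induced gene, was at 501, 169, 448 and 1934 CPM and was above the endothelial levels of 142, 47.5, 161 and 408 CPM in each library. Iigp1, the gene of an interferon-inducible GTPase, was at 309 CPM in the T cells of library 4, at 95.5 CPM in those that were not mixed and at 2318 CPM in the endothelial cells there.

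The members of library 4 were set against the 75 members of the other libraries, as a description of libraries whose grafts cannot be named. A gene was counted as past the threshold when its CPM, with 10 CPM added, differed at least 2-fold, and genes with a UMI in at least 5% of the cells of either side were used. Of 9381 genes, 629 were higher in library 4, 6.71%, and 429 were lower, 4.57%, with a median log2 ratio of 0.07 over all genes. Leaving out the mixed cells, 736 of 8854 genes (8.31%) were higher and 506 (5.71%) lower. Of the G2/M list 14 of 15 genes were higher, of the S phase list 11 of 15, of the interferon list 13 of 17 and of the glycolysis list 7 of 15. Their median log2 ratios were 2.67, 1.48, 1.47 and 0.91. The interferon count went to 7 of 17, with a median of 0.84, and the G2/M count to 15 of 15 when the mixed cells were left out.

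Named genes of this comparison included Mki67 and the class II antigen presentation gene Cd74. Without the mixed cells Mki67 was 19.1-fold and Cd74 24.4-fold higher in library 4, at 1017 against 32.1 CPM for Cd74, and without the dendritic-rich cell the latter was 12.8-fold higher, at 527 CPM. Endothelial cells of library 4 held 3166 CPM of Cd74, above the T cells. Xcl1 was 10.5-fold and the costimulatory receptor gene Tnfrsf9 7.32-fold higher. Lower in library 4 were Lef1, S1pr1, Klf3, Satb1, Igfbp4 and Il6ra, which were 6 of the 16 naive and recirculation genes, with a median of -0.79 for the list with all cells, while Dapl1 was higher. Fabp4, a gene of fatty acid transport in endothelium, was 16.3-fold and the neutrophil gene S100a8 12.5-fold lower, both without the mixed cells. These rest largely on library 2, where S100a8 was then at 1185 CPM, against 0, 27.5 and 31.8 CPM in libraries 1, 3 and 4, and Fabp4 at 2189 CPM, against 283, 422 and 60.5 CPM. By list, 6 of 7 endothelial, 3 of 4 neutrophil, 4 of 4 red blood cell, 4 of 7 cardiomyocyte and 4 of 4 fibroblast genes tested were lower in library 4 without the mixed cells. The macrophage list, 6 of 7 genes, the dendritic list, 3 of 3, and the NK cell list, 2 of 3, were higher there, the last 2 lists with 2 of 3 and 1 of 3 genes without the dendritic-rich cell, and their part in the ratios was not tested.

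Next, the 67 cells of library 4 were compared with the 488 Gzmb-positive CD8 T cells of the same library. Since Gzmb chose both groups, the values that follow only describe the split and support nothing beyond it. Of 9903 genes 381 were at least 2-fold higher in the cells without Gzmb, 3.85%, and 203 were lower, 2.05%, with a median log2 ratio of -0.01. Without the mixed cells, in 63 against 483 cells, 192 of 9697 genes (1.98%) were higher and 239 (2.46%) lower. None of the 10 genes with the largest ratio upward was shared between these settings, and 9 of the 10 downward were.

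The upward genes with all cells were led by Dcn, at 822 against 19.9 CPM, a 27.9-fold ratio that became 1.09-fold without the mixed cells. In their absence Dapl1 led, at 270.6 against 21.5 CPM, 8.9-fold. Tcf7 was 6.19-fold higher at 272 against 35.6 CPM and Il7r 5.08-fold at 291 against 49.3 CPM. Klf2, a transcription factor that keeps T cells in circulation, was 4.02-fold higher at 347 against 78.7 CPM, though endothelial cells held 1369 CPM of it. Of the 16 naive and recirculation genes 13 were higher with all cells and 12 without the mixed ones, with medians of 1.41 and 1.56, and none was lower.

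Cytotoxic genes lay on the other side. Without the mixed cells Ccl3, a chemokine gene, was at 81.2 against 1490 CPM, 16.5-fold lower, and Ifng was at 127 against 1914 CPM, 14-fold lower, still with the 1 cell rich in it. Prf1 was at 50.9 against 825 CPM, 13.7-fold lower. Gzma was at 95.5 against 1198 CPM, and at 39.6 against 1180.3 CPM without the dendritic-rich cells too (1 of the former and 2 of the latter). No ratio is read from it, since the level of 39.6 CPM was below that of endothelial cells. In library 3, with 20 and 9 cells, the log2 ratio was 0.34 for Prf1 and 1.20 for Ccl3, the other way, and -2.34 for Ifng. Those of Prf1 and Ccl3 rest on 6 and 12 UMIs in the cells without Gzmb, and 1 cell gave 75.0% of the latter. In all, 8 of 15 cytotoxic genes tested in library 4, Gzma among them, were lower in either setting and none was higher, with a median of -1.30 for all cells. Havcr2 was 7.04-fold lower, Tnfrsf9 5.28-fold and the interleukin-2 receptor gene Il2ra 4.7-fold.

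Several genes of activated cells did not follow. Ccl5 was 1.53-fold higher without Gzmb, Pdcd1 had a log2 ratio of 0.00 and Nkg7 was 1.69-fold lower, none past 2-fold. Ly6c2 was 2.4-fold and Ikzf2 3.18-fold higher in the cells without Gzmb. In library 3, the other library with more than 2 cells of both groups (20 and 9 cells), the log2 ratio of Ly6c2 was -2.88 and that of Ccl5 was -1.68. The T cell receptor list had no gene past 2-fold among 11 tested. Of the S phase list 8 of 15 genes were lower with all cells and 4 without the mixed cells (Mcm2, Mcm3, Gins2 and Dut), which became 2 without the dendritic-rich cells too. Of the G2/M list 3 of 15 were lower with all cells (Cdk1, Ccnb1 and Aurkb), 2 without the mixed cells (Cdk1 and Ccnb1) and none was higher. Mki67, of the latter list, was 1.15-fold lower. Interferon response genes were higher in 9 of 17 with all cells and in 5 without the mixed cells (Ifit1, Irf7, Ifi27l2a, Gbp2 and Iigp1).

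**Figure D5:**
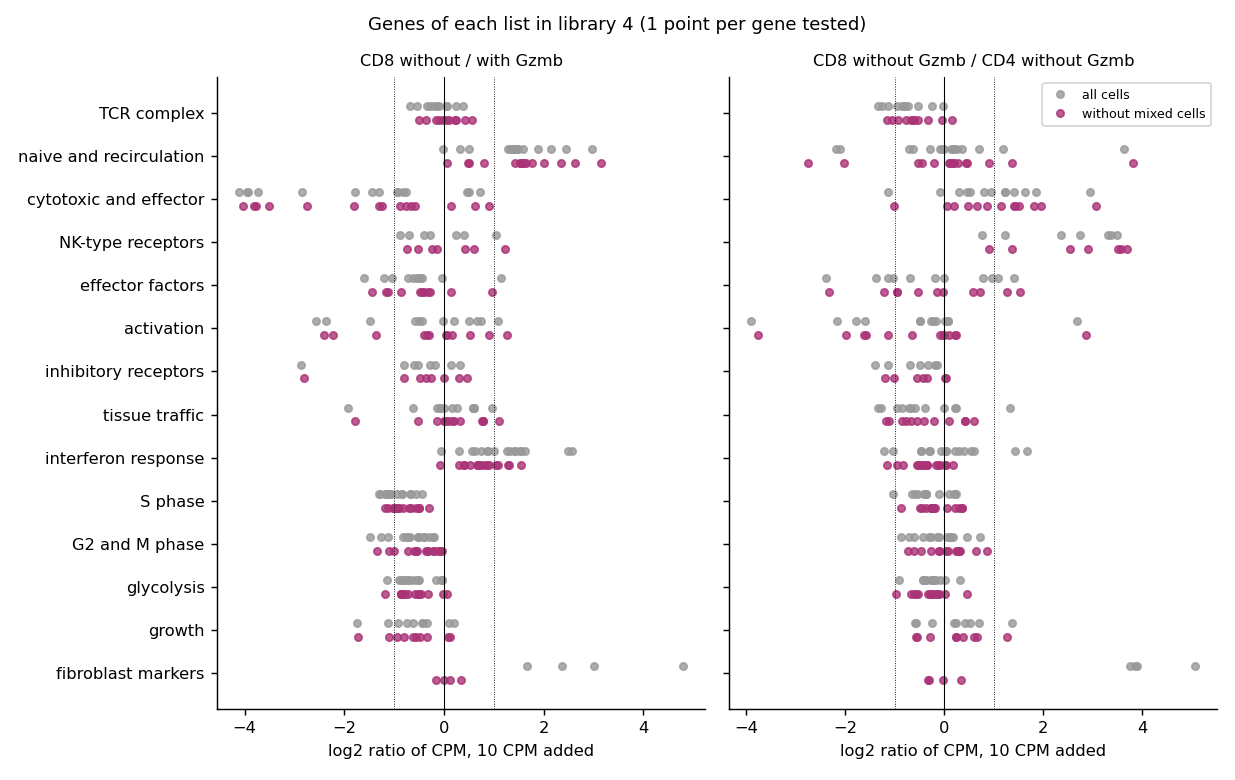
Log2 ratio of each gene of 14 lists in library 4, for CD8 T cells without Gzmb against those with Gzmb and against CD4 T cells without Gzmb; grey points are all cells and purple points leave out the mixed cells. The fibroblast genes move from a median of 2.70 to 0.07 in the first comparison, and 12 or 13 of 16 naive and recirculation genes lie above 2-fold.

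The CD4 T cells without Gzmb served as a further group for comparison. They were gated in the same way with at least 1 Cd4 UMI and no CD8 UMI, and numbered 10, 25, 9 and 50 in libraries 1 to 4, with a median of 6181 UMIs in library 4. There, 397 of 9268 genes (4.28%) were at least 2-fold higher in the 67 CD8 T cells and 216 (2.33%) were lower. Leaving out the mixed cells, 175 of 8926 genes (1.96%) were higher and 206 (2.31%) lower. The following ratios are those without the mixed cells, between 63 and 50 cells.

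NK-type receptors separated the groups. Of 7 such genes tested 6 were higher in the CD8 T cells (Klrd1, Klrk1, Klrc1, Klre1, Cd160 and Cd7), with a median log2 ratio of 2.92, and none was lower. Klrd1 was at 355 against 22.1 CPM, 11.4-fold, and Cd7 was 11.9-fold higher. Of 13 cytotoxic genes 7 were higher and Gzmk was lower. Among the 7 was Gzma, most of whose UMIs came from the dendritic-rich cell. Without that cell 6 were higher and none was lower. Ccl5 was at 2204 against 255 CPM, 8.35-fold, but the CD4 level was below the endothelial level of 324 CPM. Xcl1 was at 683 against 27.0 CPM, 18.7-fold, Ly6c2 was 7.34-fold and Dapl1 14.2-fold higher. In library 2, with 38 and 25 cells, Klrd1 was at 329 against 8.35 CPM, Ccl5 at 79.9 and Dapl1 at 47.0 CPM against no UMI, and Cd7 at 61.1 against 58.4 CPM. Xcl1 and Ly6c2 had at most 1 UMI in either group there, too few to compare.

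Of 13 activation genes 5 were lower in the CD8 T cells (Ly6a, Tnfrsf4, Tnfrsf18, Icos and Cd40lg), Ly6c2 was higher and 7 lay between, with a median log2 ratio of -0.08. Tnfrsf4, which encodes OX40, was at 50.9 against 814 CPM, 13.5-fold lower, and Icos was at 180 against 736 CPM, 3.93-fold lower. In library 2 Icos was at 75.2 against 91.8 CPM, and Tnfrsf4 and Maf had at most 3 UMIs in either group. Maf, a transcription factor of helper T cells, was 8.59-fold lower, and Cd40lg, the gene of a helper ligand for B cells and dendritic cells, was 2.98-fold lower. Ctla4 was 2.3-fold lower among the inhibitory genes, whereas Pdcd1 was 1.01-fold higher.

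Of the naive and recirculation genes, 12 of 16 lay within 2-fold between the CD8 and CD4 T cells. Bach2 and Dapl1 were at least 2-fold higher and Igfbp4 and Il6ra lower in the CD8 T cells, with a median log2 ratio of 0.17. Over all genes 1.96% were higher and 2.31% lower, so a larger share of this list was past 2-fold in each direction. Tcf7 had a ratio of 1.08-fold, Il7r of 1.12-fold and Lef1 of 1.14-fold, and in library 2 the log2 ratio of Tcf7 was -1.12. No gene of the G2/M, S phase or glycolysis lists, of 15 tested in each, was past 2-fold. The fibroblast list, 4 of 4 genes higher with all cells, had none past 2-fold without the mixed cells.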

How the data were processed

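The authors generated 3′ single-cell libraries of 4 grafts and deposited merged UMI counts per gene and cell, made with Cell Ranger 3.0.0 (file header) on mm10, with no normalization. The matrix held 53824 barcodes and 30905 genes. Positions of the 251 genes in 25 lists were taken from GENCODE M21 (GRCm38). The work was done with scipy 1.17.1, scikit-learn 1.9.0, pandas 2.3.3, numpy 2.4.6 and matplotlib 3.10.9 under Python 3.11.15.

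Counts were summed per library over non-mitochondrial genes and divided by their total (CPM), with exact Poisson intervals, and shares had exact Clopper-Pearson intervals. No test was run, because the libraries are not assigned to grafts and the groups of cells were chosen from the counts compared. Cells were thinned to 1000 UMIs where depths differed. Doublets were scored per library against simulated ones and the top 5% marked, 3 of the 142 cells, which were kept. Named genes were the listed genes and, per comparison and direction, the 10 largest ratios with at least 100 UMIs and a UMI in 10% of the higher side. The members and lists were chosen with earlier results of these data known. How reads shared by near-identical genes (Ly6c1 and Ly6c2, Trbc1 and Trbc2) were counted is not given in the sources used here, so these levels are uncertain. Code was tested on simulated data. Some genes, and the planned share of cells that included one of them, are not reported here.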

Additional observations from a re-analysis of the deposited data

How the results depend on the processing

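No paired analysis was possible because the columns carry no replicate numbers for the allogeneic and syngeneic grafts. This limit applies to the grafts only. CD8 and CD4 T cells without Gzmb were present in each library and could have been paired by library. They were chosen from the counts compared and were not tested against each other over the 4 libraries. Leaving out 1 library at a time, the 142 cells became 75 to 125, the 88.0% with a lymph node gene 84.6% to 91.0%, and the thinned 53.2% became 47.6% to 58.1%. Thinned to 2000 UMIs the last share was 72.9%. The 381 genes higher than in Gzmb-positive cells became 173 with at least 2 CD8 UMIs, 192 without mixed cells, 189 without the dendritic-rich cells as well, 208 with a 20% filter, 1017 with 1 CPM added and 106 with 50 CPM added, and 381 to 1608 on leaving out a library. The 203 lower genes became 347 pooled over libraries, 779 with 1 CPM and 32 with 50 CPM added, and 203 to 2153 on leaving out a library. Against CD4 T cells the 397 higher genes became 191, 175, 167 and 125 under the first 4 of these settings, 201 pooled, 1152 with 1 CPM, 97 with 50 CPM, and 397 to 1068 on leaving out a library. The 216 lower genes became 371 with cells weighted equally, 121 pooled, 769 with 1 CPM, 36 with 50 CPM, and 216 to 851. Without library 4 the comparison with Gzmb-positive cells rests on 20 and 9 cells of library 3, and 5 log2 ratios changed sign; over the 4 libraries left out in turn they ran from -2.88 to 1.08 for Ly6c2, -3.93 to 0.34 for Prf1, -4.11 to 1.20 for Ccl3, -2.59 to 2.48 for Gbp4 and -0.87 to 4.80 for Dcn. Over 27 gene comparisons and the 12 settings that could change them, 298 of 324 ratios kept their side of 2-fold, 21 crossed it and 5 changed sign. Without library 4, which moves them to library 3 or 2, 12 kept it, 10 crossed and 5 changed sign. Levels were checked too, and many depended on the setting. Of 23 levels, 16 were counted as changed and 7 as the same when each cell had the same weight. Without the mixed cells 15 changed and 8 did not, and with at least 2 CD8 UMIs 13 changed and 10 did not. Leaving out library 1, 2, 3 or 4 changed 5, 14, 6 and 21 levels. Leaving out the simulated doublets changed 1 and kept 22. The share of cells without Gzmb fell with depth in library 4, and depth and cell state cannot be told apart there. The mixed-cell rule and the dendritic-rich rule were chosen after seeing the data.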
